A study of Mus musculus with 12 samples.

Results

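The 10 genes described here encode structural and growth proteins of young neurons: the tubulin Tubb3, the microtubule-associated proteins Dcx, Map2 and Mapt, the neurofilament subunits Nefl, Nefm and Ina, the growth proteins Stmn2 and Gap43, and the axonal adhesion molecule Cntn2. They were chosen by gene symbol and matched to Ensembl identifiers. All 10 were found among the 48709 identifiers counted, and all 10 were among the 16511 genes that passed the filter on low counts. RNA came from the cortex of C57BL/6J mouse embryos at day E15.5, in 12 libraries. Of these, 4 were from a conditional knockout (cKO) of BAF155, 4 were labelled Pax6 cKO (called the Pax6-labelled libraries here, since their Pax6 counts went against the label) and 4 were labelled control. BAF155, the protein of Smarcc1, is a scaffold subunit of BAF, a complex that remodels chromatin, and Pax6 is a transcription factor of cortical radial glia. The promoter driving Cre, the genotype of the controls and whether a library holds 1 embryo or several are unstated in the labels, so p-values measure the spread between libraries, which may be technical.

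A neuron that has left the cell cycle extends an axon and dendrites on a scaffold of microtubules and neurofilaments. Microtubules are polymers of alpha- and beta-tubulin, and proteins such as Dcx, Map2 and Mapt (tau) bind along them, while stathmins bind free tubulin and promote disassembly. Neurofilaments are heteropolymers that fill axons as they mature. Gap43 lies under the membrane of growth cones, the moving tips of axons, and Cntn2 (TAG-1) is a surface molecule of growing axons and migrating neurons. In embryonic cortex these transcripts mark postmitotic neurons rather than the dividing radial glia.

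Some features of the libraries bear on the values below. Total counts were 15.16 to 28.26 M reads in the BAF155 cKO, 22.81 to 32.05 M reads in the Pax6-labelled libraries and 21.41 to 30.31 M reads in control. Smarcc1 averaged 127 CPM (counts per M, scaled by library) in the BAF155 cKO, 186 CPM in the Pax6-labelled libraries and 303 CPM in control. Pax6 averaged 314, 389 and 110.2 CPM in the same order of groups, the reverse of what the label gives. Whole-gene counts can include reads from outside a deleted part. Xist, the RNA of the inactive X chromosome, was high in the 4 BAF155 cKO libraries and in control replicates 3 and 4 and near 0 in the other 6, so sex differed between the groups. By the names of the deposited files, sequencing lane 8 held all controls, lane 1 held the 4 Pax6-labelled libraries with the first 2 replicates of the BAF155 cKO, and lane 3 held its other 2. Lane and group therefore cannot be told apart in the comparisons with control. Mitochondrial reads made up 1.57% to 3.27% of the BAF155 cKO libraries, 2.04% to 2.91% of those labelled Pax6 cKO and 1.21% to 2.27% of controls. The libraries also differed by gene length. In the quartile of tested genes with the shortest exons, the median log2 fold change was 0.15 in the BAF155 cKO and 0.26 in the Pax6-labelled libraries against control, and in the quartile with the longest it was −0.07 and −0.15. Control replicates 3 and 4 against 1 and 2 gave −0.17 and 0.10 for the same quartiles, so a length trend also ran inside the control group.

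Against control, Cntn2 fell both in the BAF155 cKO and in the Pax6-labelled libraries. It averaged 645 ± 119 CPM and 522 ± 36.5 CPM there, against 1160 ± 251 CPM in control (mean ± SD, n = 4 each). In the Pax6-labelled libraries, Dcx also fell, by 1.33-fold, and Stmn2 rose, by 1.34-fold. Tubb3, Map2, Mapt, Nefl, Nefm, Ina and Gap43 passed the test in neither comparison. Genes were tested by edgeR's quasi-likelihood F-test and called where the p, adjusted over all genes by Benjamini-Hochberg, was under 0.05, and adjusted p-values below are of this kind unless another tool is named. In the BAF155 cKO 1 of the 10 genes was called, lower, where 13.6% of all tested genes were called, 7.56% lower and 6.04% higher. In the Pax6-labelled libraries 3 of 10 were called, 2 lower and 1 higher, where 35.5% of all tested genes were called, 18.9% lower and 16.6% higher. The share called among the 10 was therefore near the background in both comparisons. Groups of libraries did not overlap for 1 of the 10 genes in the BAF155 cKO, lower, where 7.95% of all tested genes lay wholly lower and 6.47% wholly higher, and for 3 of 10 in the Pax6-labelled libraries, 2 lower and 1 higher, where 18.3% lay wholly lower and 17.2% wholly higher. The median log2 fold change of the 10 was −0.20 in the BAF155 cKO and −0.07 in the Pax6-labelled libraries, beside 0.01 and 0.02 over all tested genes.

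**Figure D1:**
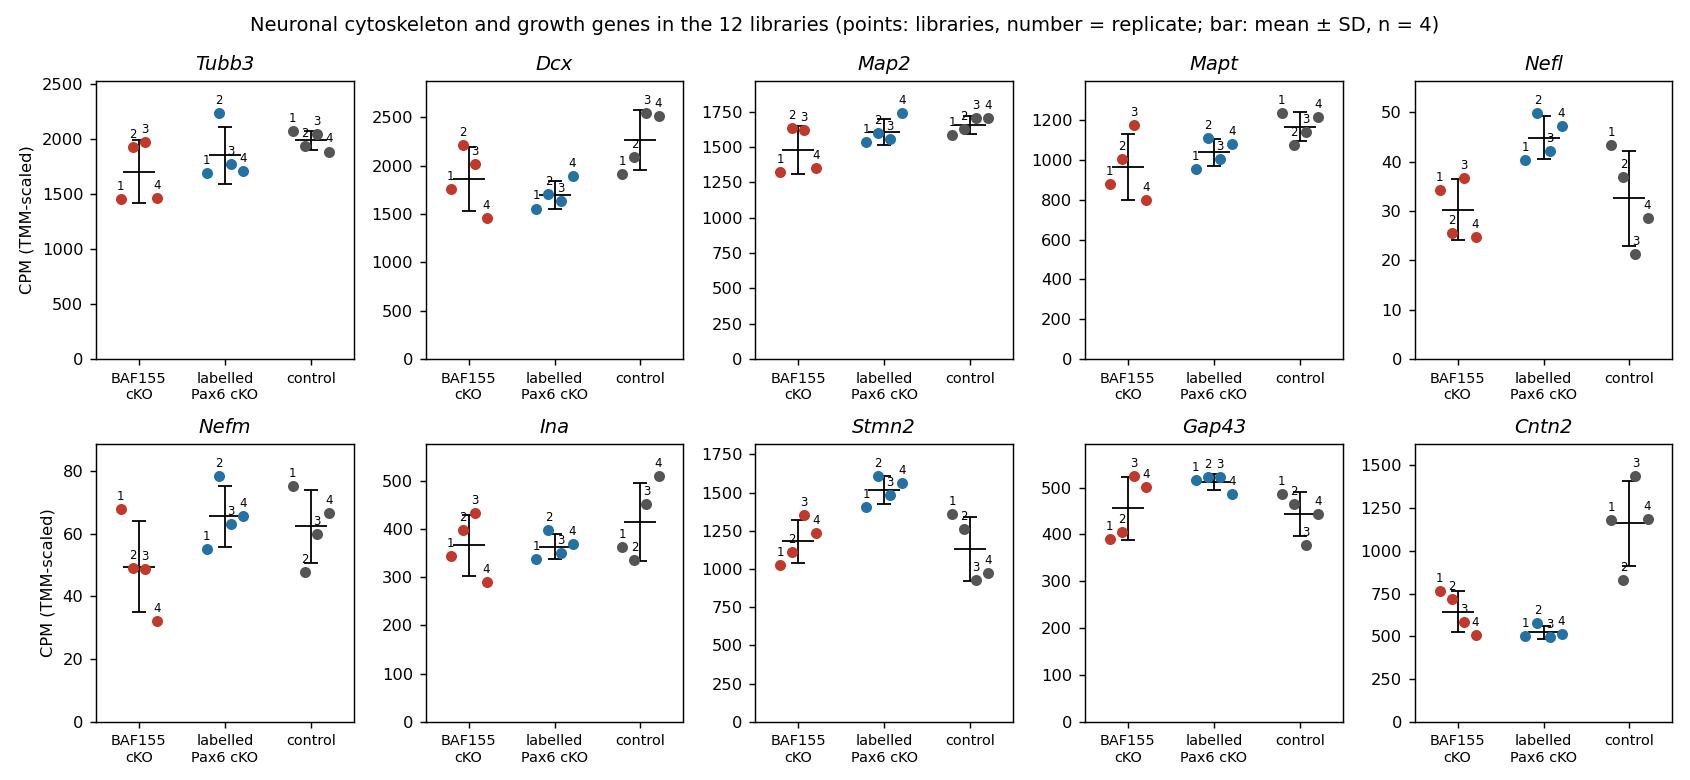
CPM of each gene in each library, each axis starting at 0; points are libraries numbered by replicate, and bars give the mean ± SD of 4 libraries per group. The 4 BAF155 cKO and the 4 Pax6-labelled libraries lie below every control for Cntn2, and the 4 Pax6-labelled libraries lie below every control for Dcx and above every control for Stmn2.

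Compared per length of exon, the genes differed over a wide range in every group. In the BAF155 cKO the levels ran, from the highest, Tubb3 at 912 ± 152 CPM per kb, Gap43 at 299 ± 44.6, Stmn2 at 211 ± 25.5, Dcx at 147 ± 26, Mapt at 128 ± 21.9, Ina at 113 ± 19.3, Map2 at 90.1 ± 10.3, Cntn2 at 69.3 ± 12.7, Nefl at 8.97 ± 1.8 and Nefm at 8.55 ± 2.52 CPM per kb (SD, n = 4). In control the levels of Tubb3 (1064 ± 47.6 CPM per kb) and Gap43 (291 ± 30.9 CPM per kb) also led. Control Cntn2, at 124.7 ± 26.9 CPM per kb, stood within its spread of Ina at 128 ± 24.9 and of Map2 at 100.8 ± 3.76. In the Pax6-labelled libraries, Cntn2 stood below Map2, at 56.2 ± 3.92 against 97.8 ± 5.62 CPM per kb. Dcx and Mapt, neighbours in the BAF155 cKO and in the Pax6-labelled libraries, differed there by less than their spread, as did Nefl and Nefm in the BAF155 cKO and in control. The exon length joins the exons of all annotated transcripts, so genes with long alternative exons, such as Map2 at 16.45 kb, are understated on this scale.

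Cntn2 (ENSMUSG00000053024) lies on the minus strand of chromosome 1 at 132509427 to 132543256 (mm10, as for all coordinates here). Its protein is an immunoglobulin-family contactin anchored to the membrane of axons. It was measured at 765, 721, 584 and 509.9 CPM across BAF155 cKO replicates 1 to 4, at 499, 576, 499 and 516 CPM in Pax6-labelled replicates 1 to 4, and at 1183, 830.0, 1440 and 1189 CPM in control replicates 1 to 4. Neither group overlapped control, and control replicate 2 was the lowest control. Against control, this was a log2 fold change of −0.85 (adjusted p = 0.00232, SE 0.15) in the BAF155 cKO and −1.15 (adjusted p = 0.000114, SE 0.15) in the Pax6-labelled libraries. The log2 fold change between both groups was 0.30 (BAF155 cKO minus Pax6-labelled, SE 0.15, adjusted p = 0.264), and 1 of the 4 BAF155 cKO libraries fell within the range of those labelled Pax6 cKO. Both calls were kept in each fit that left out 1 library (adjusted p 0.000409 to 0.00891 in the BAF155 cKO and 2.16e-05 to 0.000891 in the Pax6-labelled libraries). With the 2 same-sex controls, the log2 fold change was −1.04 (adjusted p = 0.000423) and −0.95 (adjusted p = 0.00211) in the same order. For the BAF155 cKO libraries of lane 1 alone it was −0.63 (adjusted p = 0.0538) and for those of lane 3 alone −1.09 (adjusted p = 0.00146).

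Of 10 other markers of postmitotic neurons that are not among the genes described here (Elavl3, Elavl4, Rbfox3, Syt1, Snap25, Syp, Rbfox1, Neurod2, Neurod6 and Bcl11b), 3 were lower, 0 higher and 7 not called in the BAF155 cKO, where 7.56% of all tested genes were lower. The 3 lower were Rbfox1, Neurod2 and Neurod6, while Elavl3, Elavl4, Rbfox3, Syt1, Snap25, Syp and Bcl11b were not called. In the Pax6-labelled libraries 7 were lower, 0 higher and 3 not called (Elavl4, Snap25 and Syp), where 18.9% of all tested genes were lower. The 10 markers summed to 2231 to 2924 CPM in the BAF155 cKO, 2336 to 2622 CPM in the Pax6-labelled libraries and 3183 to 3950 CPM in control, with all 10 detected. Neurod6, the most abundant of the 10, averaged 708, 707 and 1085 CPM in that order of groups. Summed deep-layer markers (6 genes) were 779 to 1075, 766 to 810 and 942.6 to 1677 CPM in the same order of groups. Of these 6 genes, 2 were lower and 0 higher in the BAF155 cKO. In the Pax6-labelled libraries 4 of them were lower and 1 higher. Summed upper-layer markers (6 genes) were 455 to 598.5, 482 to 492 and 965 to 1153 CPM in the same order of groups, and all 6 were lower in each comparison with control. Summed GABAergic markers (8 genes) were 1091 to 1304, 1285 to 1398 and 559 to 816 CPM, with 6 of 8 higher and 0 lower in each. Of all tested genes, 6.04% were higher in the BAF155 cKO and 16.6% in the Pax6-labelled libraries. In bulk tissue, fewer cells of a type and less RNA per cell cannot be told apart. The part of these cell types in the level of Cntn2 was not tested.

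The promoter windows of Cntn2, Dcx and Tubb3 are shown because Cntn2 was called lower in both groups against control, Dcx was called lower in the Pax6-labelled libraries and Tubb3 was called in neither. Each runs from 250 bases before to 50 bases after the transcription start in RefSeq (build GRCm38.p6), 5′ to 3′ on the gene's strand. RefSeq windows were matched for 5 of the 10 genes, Tubb3, Dcx, Map2, Ina and Cntn2, with 2 for Dcx. Capitals mark exact matches to motifs searched on both strands: TATAAA, a form of the TATA box sequence, the E-boxes CAGATG and CAGCTG, which are bound by proneural bHLH factors, and the GC box GGGCGG. Near matches are left unmarked, and a match to TATAAA alone does not show a working TATA box. The windows are Cntn2 at chr1:132542891-132543190 (minus strand), Dcx at chrX:143933170-143933469 (minus strand) and Tubb3 at chr8:123411303-123411602 (plus strand).
Cntn2: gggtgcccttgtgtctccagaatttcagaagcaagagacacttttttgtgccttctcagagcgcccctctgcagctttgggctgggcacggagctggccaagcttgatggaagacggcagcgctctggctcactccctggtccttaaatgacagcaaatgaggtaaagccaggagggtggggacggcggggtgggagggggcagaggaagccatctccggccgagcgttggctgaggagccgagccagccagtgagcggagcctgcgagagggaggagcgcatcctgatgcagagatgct
Dcx: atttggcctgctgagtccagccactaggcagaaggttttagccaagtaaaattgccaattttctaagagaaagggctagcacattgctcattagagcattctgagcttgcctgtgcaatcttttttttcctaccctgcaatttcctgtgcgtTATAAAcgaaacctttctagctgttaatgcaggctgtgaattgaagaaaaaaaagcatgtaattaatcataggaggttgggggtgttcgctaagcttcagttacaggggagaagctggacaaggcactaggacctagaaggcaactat
Tubb3: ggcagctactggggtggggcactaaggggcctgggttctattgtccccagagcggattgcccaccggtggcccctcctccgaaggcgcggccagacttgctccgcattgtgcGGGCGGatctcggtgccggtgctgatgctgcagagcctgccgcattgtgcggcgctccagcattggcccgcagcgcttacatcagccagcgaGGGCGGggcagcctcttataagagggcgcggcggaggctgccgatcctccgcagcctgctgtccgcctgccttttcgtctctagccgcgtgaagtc
The Cntn2 window held none of the 4 motifs and had 61.3% G and C. The Dcx window held 1 TATAAA, 98 bases before the start, and had 43% G and C. In the other Dcx window the match lay 193 bases before the start. The Tubb3 window held 2 GGGCGG, 138 and 46 bases before the start, and had 67.3% G and C. Map2 held 5 GGGCGG, and Ina held 2 with 1 CAGCTG. No matches overlapped. Of 32851 promoter windows of this length, 13.6% held TATAAA, 17.2% CAGATG, 16.3% CAGCTG and 35.7% GGGCGG. These matches describe letters in the windows and say nothing of factor binding.

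Dcx (ENSMUSG00000031285) encodes doublecortin, which stabilises microtubules in migrating neurons, and lies on the X chromosome at 143855842 to 143933311 on the minus strand. It was at 1755, 2216, 2014 and 1456 CPM in the BAF155 cKO, at 1556, 1710, 1632 and 1888 CPM in the Pax6-labelled libraries, and at 1916, 2085, 2543 and 2513 CPM in control. The Pax6-labelled libraries lay just below the control range, while the BAF155 cKO overlapped it. Its log2 fold change was −0.28 (adjusted p = 0.158, SE 0.14) in the BAF155 cKO and −0.42 (adjusted p = 0.0268, SE 0.14) in the Pax6-labelled libraries. For the BAF155 cKO minus the Pax6-labelled libraries the value of Dcx was 0.13 (adjusted p = 0.618, SE 0.14). The call in the Pax6-labelled libraries was lost without control replicate 3 or 4, or Pax6-labelled replicate 1, 2 or 3 (adjusted p 0.05 to 0.0862), with the 2 same-sex controls (−0.24, adjusted p = 0.352) and after correction of each library's length trend (−0.23, adjusted p = 0.159). Against same-sex controls, replicates 3 and 4, the BAF155 cKO was called lower for Dcx (−0.46, adjusted p = 0.0393). Controls 3 and 4, which expressed Xist, exceeded controls 1 and 2 by 0.34 (log2). The part of sex and of length in these values was not tested apart.

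Tubb3 (ENSMUSG00000062380, chromosome 8, 123411424 to 123422015, plus strand) encodes the neuron-specific class III beta-tubulin. Its reads may be hard to tell from those of other beta-tubulin genes, whose coding sequences are alike. It was at 1454, 1928, 1970 and 1461 CPM in the BAF155 cKO, at 1693, 2236, 1771 and 1706 CPM in the Pax6-labelled libraries, and at 2076, 1939, 2045 and 1886 CPM in control. BAF155 cKO replicates 1 and 4 lay below every other library, with replicates 2 and 3 in the control range, and Pax6-labelled replicate 2 was the highest of all. Against control, this was a log2 fold change of −0.22 (adjusted p = 0.231, SE 0.13) in the BAF155 cKO and −0.10 (adjusted p = 0.55, SE 0.13) in the Pax6-labelled libraries.

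Map2 and Mapt encode microtubule-binding proteins, of which Map2 comes to lie in dendrites and Mapt in axons. Map2 (ENSMUSG00000015222, chromosome 1, 66175273 to 66442583, plus strand) was at 1322, 1634, 1621 and 1349 CPM in the BAF155 cKO, at 1535, 1600, 1558 and 1741 CPM in the Pax6-labelled libraries, and at 1583, 1630, 1709 and 1707 CPM in control. It varied least of the 10 genes in control, with a coefficient of variation of 3.73%. Its log2 fold change was −0.16 (adjusted p = 0.26, SE 0.10) in the BAF155 cKO and −0.04 (adjusted p = 0.757, SE 0.10) in the Pax6-labelled libraries. Mapt (ENSMUSG00000018411, chromosome 11, 104231390 to 104332090, plus strand) was at 881, 1005, 1177 and 798 CPM in the BAF155 cKO, at 957, 1109, 1007 and 1082 CPM in the Pax6-labelled libraries, and at 1237, 1077, 1142 and 1217 CPM in control. In the BAF155 cKO 3 of 4 libraries were below every control for Mapt, with replicate 3 inside the control range. The log2 fold change of Mapt was −0.28 (adjusted p = 0.114, SE 0.12) in the BAF155 cKO, and −0.39 (adjusted p = 0.0333) without replicate 3. In the Pax6-labelled libraries it was −0.17 (adjusted p = 0.261, SE 0.12).

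**Figure D2:**
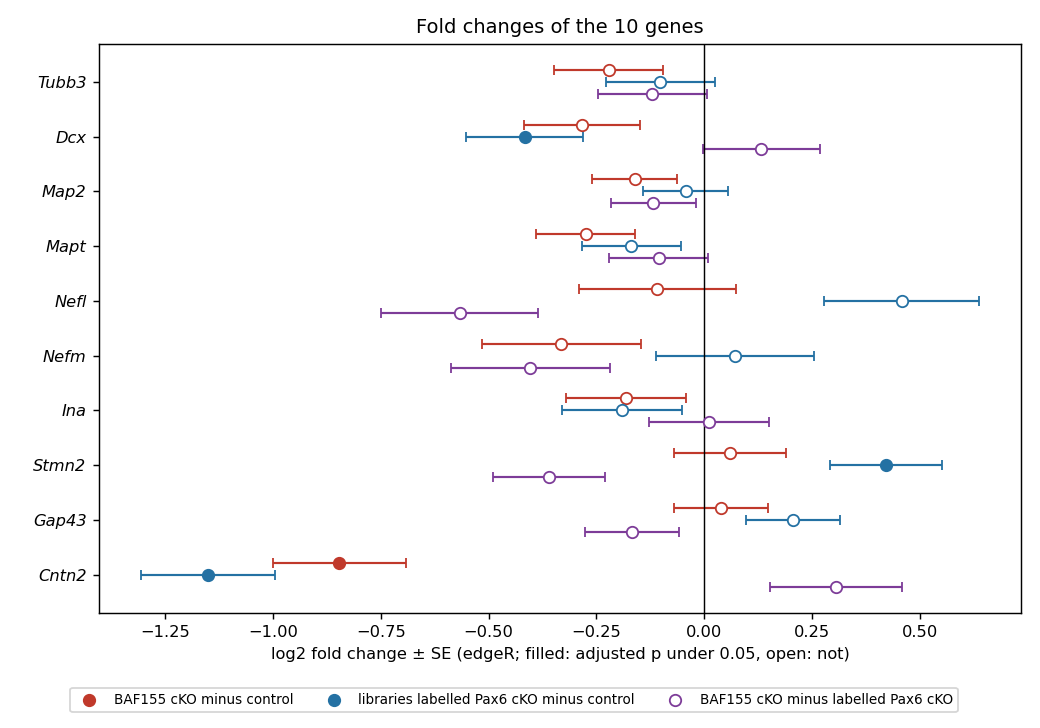
Log2 fold change ± SE of each gene (horizontal axis) for the 3 contrasts; filled points passed the test and open points did not. Only Cntn2 is filled for the BAF155 cKO, at −0.85, and Cntn2, Dcx and Stmn2 are filled for the Pax6-labelled libraries, at −1.15, −0.42 and 0.42.

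Of the neurofilament genes, Nefl and Nefm were the least abundant of the 10 and Ina was more abundant. Nefl (ENSMUSG00000022055, chromosome 14, 68083863 to 68089095, plus strand) encodes the light subunit, and Nefm (ENSMUSG00000022054, chromosome 14, 68082590 to 68124846, minus strand) the medium subunit. Their annotated exons overlap on opposite strands over 1108 bases, 32.8% of the exon length of Nefl and 19.2% of that of Nefm, and these counts do not mark strand, so reads there cannot be assigned. Nefl was at 34.25, 25.5, 36.8 and 24.8 CPM in the BAF155 cKO, at 40.3, 49.9, 42.3 and 47.2 CPM in the Pax6-labelled libraries, and at 43.5, 37.0, 21.3 and 28.6 CPM in control. The 4 Pax6-labelled libraries lay above all 4 of the BAF155 cKO for Nefl, while controls overlapped both. The log2 fold change of Nefl was −0.11 (adjusted p = 0.695, SE 0.18) in the BAF155 cKO and 0.46 (adjusted p = 0.0593, SE 0.18) in the Pax6-labelled libraries. The value in the Pax6-labelled libraries passed by DESeq2 (adjusted p = 0.0444), by limma-voom (adjusted p = 0.0454) and without control replicate 1 (adjusted p = 0.011), and was 0.15 (adjusted p = 0.574) against same-sex controls.

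Markers of peripheral neurons, which are rich in neurofilaments, summed to 22.6 to 51.9 CPM in the BAF155 cKO, 24.2 to 30.9 CPM in the Pax6-labelled libraries and 16 to 47.6 CPM in control. Of 5 such markers 4 passed the filter and 0 of those were called in either comparison.

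Nefm was at 67.8, 49.1, 48.6 and 32.2 CPM in the BAF155 cKO, at 55.1, 78.5, 63.2 and 65.8 CPM in the Pax6-labelled libraries, and at 75.1, 47.6, 60.05 and 66.7 CPM in control. All 3 groups overlapped, and BAF155 cKO replicate 4 was the lowest library. Its log2 fold change was −0.33 (adjusted p = 0.219, SE 0.18) in the BAF155 cKO and 0.07 (adjusted p = 0.781, SE 0.18) in the Pax6-labelled libraries. For the BAF155 cKO libraries of lane 3 alone, Nefm was called lower (−0.63, adjusted p = 0.0469), and for lane 1 alone it was not (−0.08, adjusted p = 0.831). Ina (ENSMUSG00000034336, chromosome 19, 47014698 to 47025327, plus strand) encodes alpha-internexin, a neurofilament subunit made early in development. Exons of Nt5c2 on the other strand overlap 14.1% of its exon length. It was at 344, 397, 434 and 290.3 CPM in the BAF155 cKO, at 338, 397.5, 349.9 and 369 CPM in the Pax6-labelled libraries, and at 362, 336, 452 and 511 CPM in control. Controls 3 and 4 were the highest libraries for Ina and control 2 was below every Pax6-labelled library. The log2 fold change of Ina was −0.18 (adjusted p = 0.37, SE 0.14) in the BAF155 cKO and −0.19 (adjusted p = 0.293, SE 0.14) in the Pax6-labelled libraries. Against same-sex controls Ina was called lower in the BAF155 cKO (−0.41, adjusted p = 0.0428) and had a value of 0.06 (adjusted p = 0.84) in the Pax6-labelled libraries.

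Stmn2 (ENSMUSG00000027500, chromosome 3, 8509360 to 8561606, plus strand) encodes stathmin-2, or SCG10, a tubulin-binding protein of growth cones. It was at 1025, 1111, 1352 and 1233 CPM in the BAF155 cKO, at 1403, 1611, 1485 and 1562 CPM in the Pax6-labelled libraries, and at 1360, 1263, 929 and 973 CPM in control. The Pax6-labelled libraries lay above every other library, and controls 1 and 2 were closer to them than controls 3 and 4. Its log2 fold change was 0.06 (adjusted p = 0.764, SE 0.13) in the BAF155 cKO and 0.42 (adjusted p = 0.0206, SE 0.13) in the Pax6-labelled libraries. This call was lost without control replicate 3 or 4 or Pax6-labelled replicate 2 or 4 (adjusted p 0.0507 to 0.0768) and with the 2 same-sex controls (0.21, adjusted p = 0.338), and was kept after correction of each library's length trend (0.45, adjusted p = 0.0177). Summed markers of Cajal-Retzius and preplate neurons, the earliest neurons of the cortex, were 629 to 664 CPM in the BAF155 cKO, 749 to 797 CPM in the Pax6-labelled libraries and 410.2 to 575 CPM in control, with 6 and 7 of 7 higher, and their part in the level of Stmn2 was not tested. In the same comparisons 6.04% and 16.6% of all tested genes were higher. Gap43 (ENSMUSG00000047261, chromosome 16, 42248442 to 42340651, minus strand) was at 389, 406, 525 and 501.5 CPM in the BAF155 cKO, at 515, 522, 522 and 486 CPM in the Pax6-labelled libraries, and at 487, 464.5, 378 and 444 CPM in control. Of the 4 Pax6-labelled libraries, 3 lay above every control and the other just under control 1. The log2 fold change of Gap43 was 0.04 (adjusted p = 0.823, SE 0.11) in the BAF155 cKO and 0.21 (adjusted p = 0.151, SE 0.11) in the Pax6-labelled libraries.

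**Figure D3:**
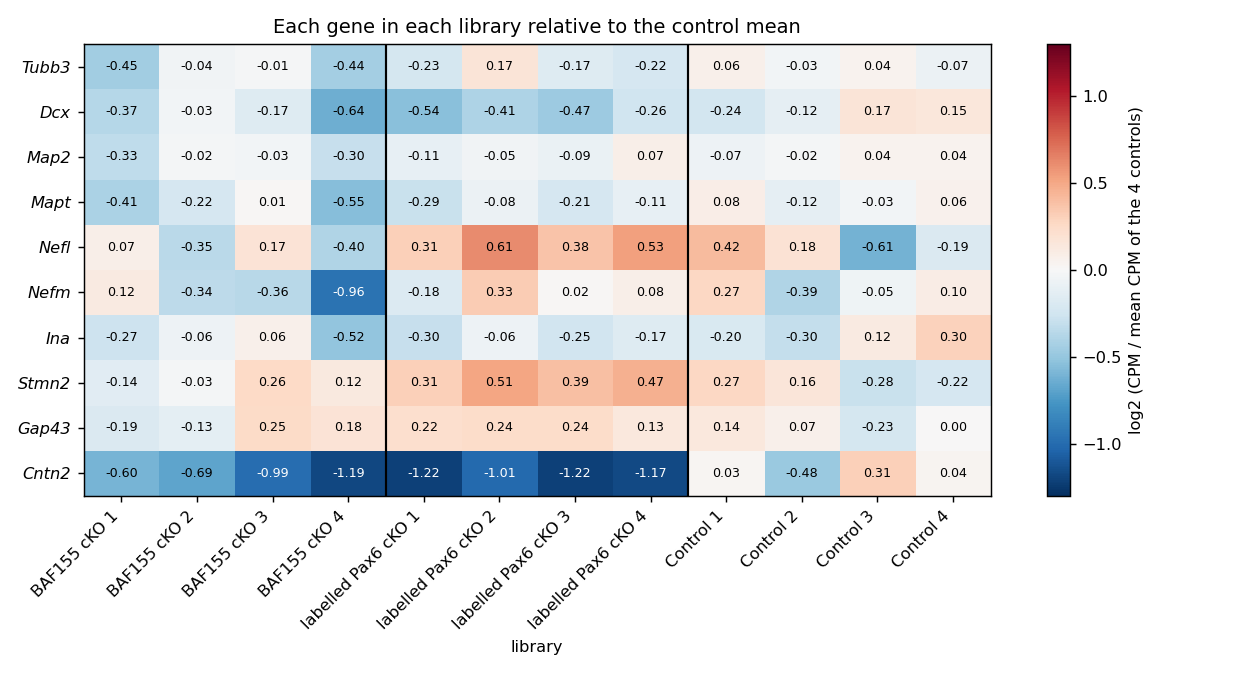
Log2 of the CPM of each gene over the mean CPM of the 4 controls, by library (columns, groups divided by lines); blue is below and red above the control mean. Cntn2 is blue in the 4 BAF155 cKO and the 4 Pax6-labelled libraries, from −0.60 to −1.22.

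Within groups, replicates differed by gene. In a split of the BAF155 cKO chosen after its values were seen, which follows no label and is a description only, replicates 2 and 3 exceeded 1 and 4 by 0.42 for Tubb3, 0.40 for Dcx, 0.38 for Mapt, 0.39 for Ina and 0.29 for Map2 (mean log2 CPM), but by only 0.05 for Cntn2, 0.06 for Gap43 and 0.07 for Nefl. The mitochondrial share was 1.57% and 2.09% in replicates 2 and 3 and 2.92% and 3.27% in 1 and 4, and its part in these values was not tested. In control, replicates 3 and 4 differed from 1 and 2 by 0.46 for Ina, 0.40 for Cntn2 and 0.34 for Dcx, and by −0.70 for Nefl, −0.46 for Stmn2 and −0.22 for Gap43. The summed level of the 10 genes was 7655 to 9762 CPM in the BAF155 cKO, 8591 to 9890 CPM in the Pax6-labelled libraries and 9709 to 10720 CPM in control. Cntn2 was the lowest of the 10 relative to the control mean in each of the 4 BAF155 cKO and the 4 Pax6-labelled libraries.

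By Pearson correlation of log2 CPM over the 12 libraries, which share groups, lanes and sex, the genes most like Cntn2 were Flrt1 (r = 0.983), an adhesion protein, and Dab1 (r = 0.979), the intracellular adaptor of reelin signalling. Those most like Dcx were Nr2c2, a nuclear receptor, and Upf2, a factor of nonsense-mediated decay (r = 0.991 each). Those most like Stmn2 were Fxyd6 (r = 0.973), a regulator of the sodium pump, and Clta (r = 0.969), a clathrin light chain.

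Between the BAF155 cKO and the Pax6-labelled libraries, none of the 10 genes was called by edgeR (0 of 10, against 4.31% of all tested genes, 2.3% higher and 2.01% lower), while 3 had an unadjusted p under 0.05. DESeq2 called 1 and limma-voom 0. The 3 were Nefl (log2 fold change −0.57, SE 0.18, adjusted p = 0.0896), Stmn2 (−0.36, SE 0.13, adjusted p = 0.124) and Nefm (−0.40, SE 0.18, adjusted p = 0.218), each the BAF155 cKO minus the Pax6-labelled libraries. Nefl was the gene called by DESeq2 (adjusted p = 0.0418), and it was also called when only the 8 libraries compared were fitted (adjusted p = 0.0198). For Nefl and Stmn2 the 4 BAF155 cKO libraries lay below the 4 Pax6-labelled libraries, where 7.83% of all tested genes did so and 7.5% lay wholly higher. The median log2 fold change of the 10 was −0.12, beside 0.01 over all tested genes.

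Related genes of the cytoskeleton, growth cone and axonal adhesion, in 9 lists of 102 genes, were called more often as lower than as higher. The lists also hold genes that are not neuronal, such as Nes and Vim of radial glia. In the BAF155 cKO 17 of 102 were lower and 3 higher, and in the Pax6-labelled libraries 42 were lower and 6 higher. Together these are 19.6% and 47.1% of the lists, beside the 13.6% and 35.5% of all tested genes. By direction, 7.56% of all tested genes were lower and 6.04% higher in the BAF155 cKO, and 18.9% and 16.6% in the Pax6-labelled libraries. These shares, and those of the alternatives given next, also stand beside the counts per list below. The median log2 fold change of the 102 genes was −0.20 and −0.25. The counts depended on the libraries used. With same-sex controls, 39 were lower and 6 higher in the BAF155 cKO (25.1% of all genes called), and 16 lower and 1 higher in the Pax6-labelled libraries (7.98% called). After correction of the length trend, 13 were lower and 2 higher in the BAF155 cKO and 31 lower and 5 higher in the Pax6-labelled libraries, where 13.6% and 31.1% of all genes were called. With only the BAF155 cKO libraries of lane 1, 5 were lower and 0 higher (3.98% of all genes called), and with those of lane 3, 16 were lower and 6 higher (12.4% called). With only the 8 libraries of each comparison fitted, 8 were lower and 0 higher in the BAF155 cKO (6.52% called), and 54 were lower and 6 higher in the Pax6-labelled libraries (40.7% called). For fits without 1 library, 8 to 28 were lower in the BAF155 cKO, the fewest without control replicate 3 or BAF155 cKO replicate 4 and the most without BAF155 cKO replicate 2, and 31 to 48 in the Pax6-labelled libraries. Over all genes, such fits called 1001 to 4073 in the BAF155 cKO, beside 2246 with all libraries. In the Pax6-labelled libraries they called 3825 to 6601, beside 5866.

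**Figure D4:**
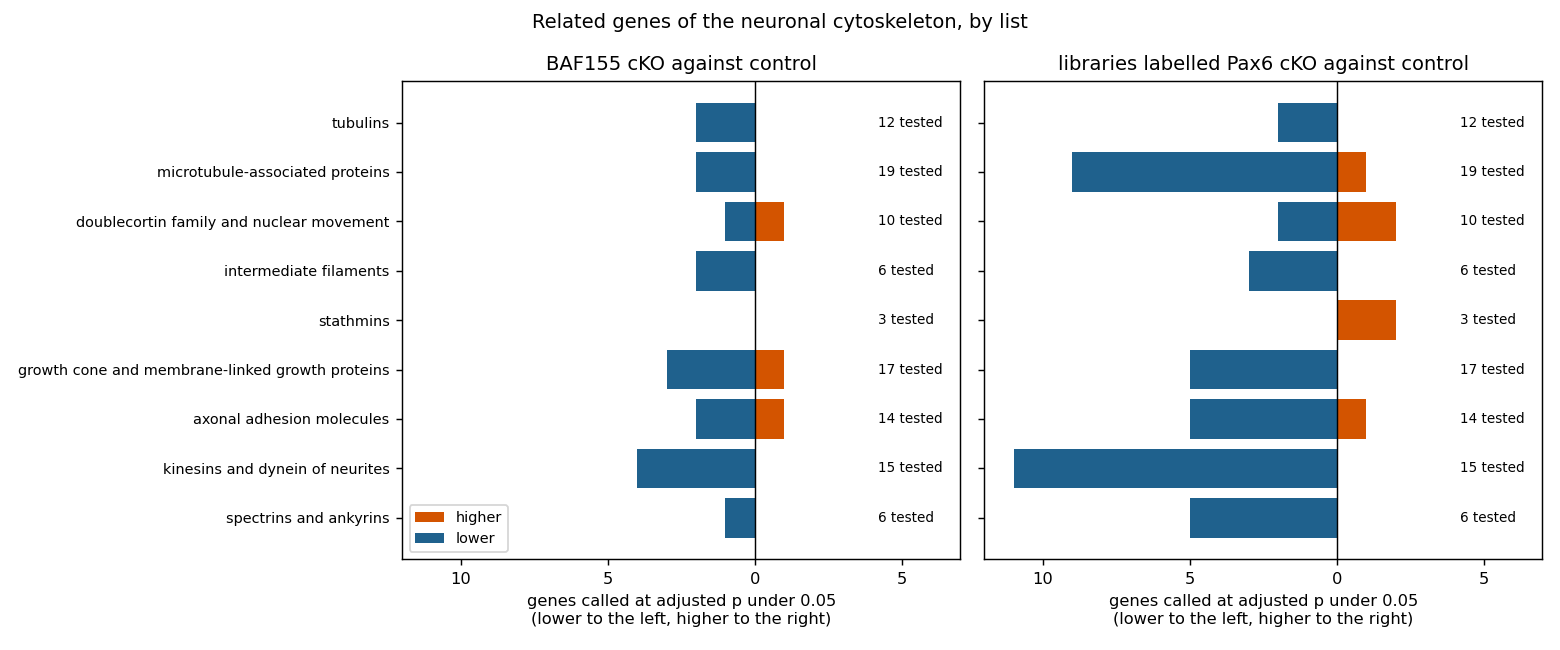
Number of related genes called lower (to the left) and higher (to the right) per list, for the BAF155 cKO and for the Pax6-labelled libraries against control, with the number tested beside each bar. Kinesins and dynein have the most genes called lower among the 9 lists, 4 of 15 lower in the BAF155 cKO and 11 of 15 lower in the Pax6-labelled libraries. By share of the list, intermediate filaments lead in the BAF155 cKO (2 of 6 lower, Nes and Vim, which are filaments of radial glia). Spectrins and ankyrins lead by share in the Pax6-labelled libraries (5 of 6 lower).

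In the list of kinesins and dynein of neurites, 4 of 15 genes were lower and 0 higher in the BAF155 cKO, and 11 were lower and 0 higher in the Pax6-labelled libraries. The count in the BAF155 cKO was 1 without control replicate 3 or BAF155 cKO replicate 4, 2 without control replicate 4 or BAF155 cKO replicate 1, and 9 without BAF155 cKO replicate 2, and that in the Pax6-labelled libraries was 7 without control replicate 3. The number of all genes called moved too, from 1001 without BAF155 cKO replicate 4 to 4073 without its replicate 2. In the Pax6-labelled libraries it was 3825 without control replicate 3. With same-sex controls 12 were lower in the BAF155 cKO and 6 in the Pax6-labelled libraries. Dync1i1, a dynein intermediate chain, fell to 75.1 ± 10.9 CPM in the BAF155 cKO, against 160.0 ± 26.6 CPM in control (SD, n = 4 each; log2 fold change −1.09, SE 0.12, adjusted p = 2.36e-05). Dync1i1 was lower in the BAF155 cKO than in the Pax6-labelled libraries, which had 137 ± 7.31 CPM (log2 fold change −0.87, SE 0.12, adjusted p = 0.00105). The kinesin Kif21b fell to 692 ± 112 CPM in the BAF155 cKO and to 509 ± 14.1 CPM in the Pax6-labelled libraries, against 1028 ± 219 CPM in control (−0.57, adjusted p = 0.0169, and −1.01, adjusted p = 0.00016). Kif21a fell in the Pax6-labelled libraries (−0.70, adjusted p = 0.000628), and the dynein heavy chain gene Dync1h1 was higher in the BAF155 cKO than there (0.48, adjusted p = 0.0415). The call of Dync1h1 was lost without BAF155 cKO replicate 1, 2 or 3.

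Of 19 genes of microtubule-associated proteins, 2 were lower and 0 higher in the BAF155 cKO, and 9 were lower and 1 higher in the Pax6-labelled libraries. Map4 fell in both (−0.38, adjusted p = 0.0156, and −0.42, adjusted p = 0.00368), as did the kinase gene Mark1 (−0.26, adjusted p = 0.0447, and −0.42, adjusted p = 0.00189). Tppp3 rose in the Pax6-labelled libraries (0.61, adjusted p = 0.014). With same-sex controls 9 of these 19 were lower in the BAF155 cKO and 0 in the Pax6-labelled libraries. Of 12 tubulins, 2 were lower and 0 higher in each comparison with control. This was 16.7% of the tubulins, beside 7.56% of all tested genes called lower in the BAF155 cKO and 18.9% in the Pax6-labelled libraries. With same-sex controls 2 were lower in the BAF155 cKO and 0 in the Pax6-labelled libraries. The 2 were Tubb4a (−0.65, adjusted p = 0.00203, and −0.51, adjusted p = 0.00441) and Tuba4a (−0.69, adjusted p = 0.028, and −0.87, adjusted p = 0.00318). Exons of Stk16 on the other strand overlap 37.3% of the exon length of Tuba4a, and reads there cannot be assigned. Tubb4b was lower in the BAF155 cKO than in the Pax6-labelled libraries (−0.37, adjusted p = 0.0347). Its call was lost when only the 8 libraries compared were fitted and without BAF155 cKO replicate 1, 3 or 4.

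In the list of the doublecortin family and nuclear movement, 1 of 10 genes rose and 1 fell in the BAF155 cKO, and 2 rose and 2 fell in the Pax6-labelled libraries. Dclk2, a kinase with doublecortin domains, rose to 528 ± 121 CPM in the BAF155 cKO and to 591.5 ± 74.8 CPM in the Pax6-labelled libraries, against 364 ± 34.9 CPM in control (0.54, adjusted p = 0.0242, and 0.70, adjusted p = 0.00248). Dab1 fell in both (−0.62, adjusted p = 0.00614, and −0.75, adjusted p = 0.000833). Cdk5, a kinase of neuronal migration, rose in the Pax6-labelled libraries (0.39, adjusted p = 0.00571), and Nde1, a dynein-binding protein, fell there (−0.31, adjusted p = 0.0468). Of the 3 other stathmins 0 were called in the BAF155 cKO, while Stmn1 (0.41, adjusted p = 0.00546) and Stmn3 (0.55, adjusted p = 0.00589) rose with Stmn2 in the Pax6-labelled libraries. With same-sex controls 2 of the 3 were higher in the BAF155 cKO and 0 in the Pax6-labelled libraries.

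Of 6 other intermediate filament genes, 2 fell and 0 rose in the BAF155 cKO, and 3 fell and 0 rose in the Pax6-labelled libraries. Nes (−0.55, adjusted p = 0.013, and −0.87, adjusted p = 0.000236) and Vim (−0.81, adjusted p = 0.0089, and −1.06, adjusted p = 0.000715), which fell in both, are filaments of radial glia rather than neurons. Of 17 growth cone genes, 3 were lower and 1 higher in the BAF155 cKO, and 5 were lower and 0 higher in the Pax6-labelled libraries. Dpysl5 of the collapsin response mediator family (−0.52, adjusted p = 0.0122, and −0.61, adjusted p = 0.00204) and the actin-binding Ablim1 (−0.58, adjusted p = 0.00109, and −0.37, adjusted p = 0.00841) fell in both. Nrgn, a calmodulin-binding protein, rose in the BAF155 cKO (0.75, adjusted p = 0.0414), at a low level of 8.74 ± 2.56 CPM against 5.15 ± 1.1 CPM in control. The call of Nrgn was lost when only the 8 libraries compared were fitted and without BAF155 cKO replicate 3 or 4 or control replicate 1.

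Among 14 axonal adhesion genes, the group of Cntn2, 2 were lower and 1 higher in the BAF155 cKO, and 5 were lower and 1 higher in the Pax6-labelled libraries. Nrcam (−0.31, adjusted p = 0.025, and −0.44, adjusted p = 0.00168) and Epb41l3, a membrane skeleton protein (−0.54, adjusted p = 0.000261, and −0.25, adjusted p = 0.0156), fell in both. Nfasc (−0.66, adjusted p = 0.000601) and L1cam (−0.50, adjusted p = 0.00163) fell in the Pax6-labelled libraries, and had −0.13 (adjusted p = 0.406) and −0.22 (adjusted p = 0.124) in the BAF155 cKO. Ncam2 rose in both (0.45, adjusted p = 0.023, and 0.39, adjusted p = 0.0196). Nfasc was at 293 ± 36.1 CPM in the BAF155 cKO, against 203.5 ± 2.05 CPM in the Pax6-labelled libraries (0.53, adjusted p = 0.013), and Epb41l3 was lower in the BAF155 cKO (−0.28, adjusted p = 0.0438). This call of Epb41l3 was lost when only the 8 libraries compared were fitted and without BAF155 cKO replicate 1, 2, 3 or 4. The other contactin genes listed, Cntn1, Cntn3, Cntn4, Cntn5 and Cntn6, were not called in either comparison. Of 6 spectrin and ankyrin genes, 1 was lower and 0 higher in the BAF155 cKO, and 5 were lower and 0 higher in the Pax6-labelled libraries, among them Ank3 (−0.41, adjusted p = 0.00362 in the Pax6-labelled libraries), whose protein anchors membrane proteins at the start of the axon. The median exon length of the spectrin and ankyrin list was 15.4 kb, that of the stathmins 1.92 kb and that of all tested genes 4.14 kb. After correction of the length trend 1 of the 6 was lower in the Pax6-labelled libraries.

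**Figure D5:**
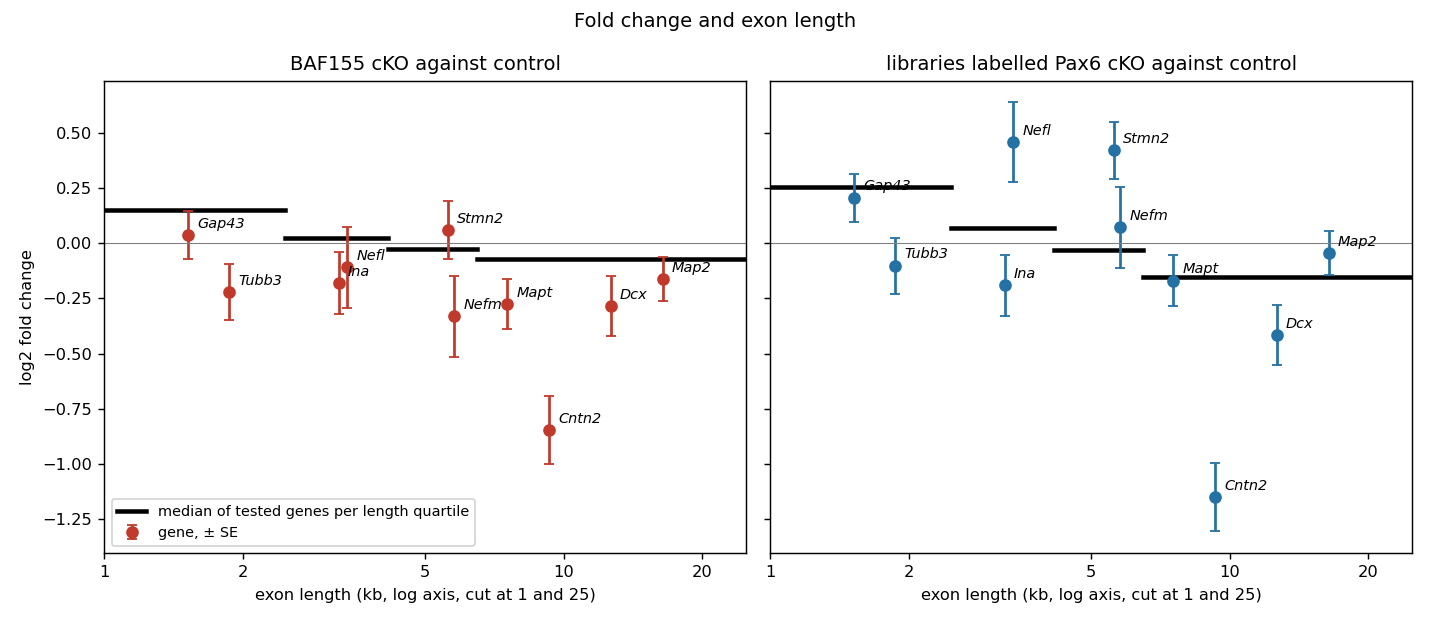
Log2 fold change ± SE of each of the 10 genes against its exon length in kb (log axis), with the median of all tested genes per length quartile as black lines, for the BAF155 cKO (left) and the Pax6-labelled libraries (right) against control. Cntn2, at −0.85 and −1.15, lies below the medians of its quartile, −0.07 and −0.15, and Stmn2 lies above its own in the right panel, 0.42 beside −0.03.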

How the data were processed

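The authors deposited raw read counts per Ensembl gene, 1 file per library with no header line. Per the labels' protocols, RNA was extracted with RNeasy columns and prepared with TruSeq RNA v2, a kit that does not mark strand. Per the submitters' processing notes, reads were placed on mm10; their aligner, counter and annotation are not given in the sources used for these values. Of 48709 identifiers, 48349 matched GENCODE M21, used for symbols, coordinates and exon lengths.

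Counts were filtered with filterByExpr, scaled by TMM and fitted in edgeR 4.0.16 (R 4.3.3) with 1 coefficient per group over all 12 libraries. Each SE is the size of the log2 fold change over the root of its F statistic. CPM use TMM-scaled library sizes. The smallest count of any of the 10 genes in a library was 388, and no pair of replicates agreed within sampling noise (chi-square per gene of at least 3.13 between replicates).

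Named are the 10 genes, per list and contrast the 2 called genes of smallest adjusted p in each direction, and the 2 genes most correlated with each called member. One gene that this rule names is not reported here. The 5 other contactins were chosen after their values were seen. The 10 genes and the lists were chosen with earlier results of these data known. Alternatives were RLE scaling, DESeq2 1.42.0, limma-voom (limma 3.58.1), 2 other filters, a fit of the 8 libraries compared, a replicate block, same-sex controls, BAF155 cKO libraries of each lane, leaving out each library, and, chosen after seeing the data, a loess correction (span 0.3) of the dependence on exon length in each library.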

Additional observations from a re-analysis of the deposited data

Results flagged for a closer look

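Tubb3 in Pax6-labelled replicate 2 stood apart from the other 3 libraries of its group, at 2236 CPM against 1693 to 1771 CPM. By Dixon's test its gap exceeded the 95% critical value for 4 samples. Of 30 groups of 4 libraries examined, 1 was picked out, and chance picks about 1 in 20. This library had the lowest mitochondrial share of its group (2.04%). Its summed choroid plexus markers were the highest of the group, at 328.7 CPM against 14.9, 95.4 and 199.2 CPM in Pax6-labelled replicates 1, 3 and 4. These 4 markers summed to 3.18 to 12.7 CPM in the BAF155 cKO and 11.6 to 28.5 CPM in control, and 2 of 4 were called higher in the Pax6-labelled libraries against control. The part of both in the value was not tested.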

How the results depend on the processing

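Over the settings tried, 495 of 540 recomputed log2 fold changes of single genes kept their direction and side of the threshold, 13 lost and 9 gained a call and 23 changed sign, none of the last from a called value. The replicate block kept the counts of called genes among the 10 (1, 3 and 0). Same-numbered libraries of different groups correlated at −0.112 to 0.239 and other-numbered ones at −0.258 to 0.176. These ranges overlap, and with 4 libraries per group they cannot decide whether the numbers pair the libraries.

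The number called among the 10 in the BAF155 cKO was 3 with same-sex controls, 0 for lane 1 and 2 for lane 3 (25.1%, 3.98% and 12.4% of all genes called), and 1 to 2 without 1 library. In the Pax6-labelled libraries it was 1 with same-sex controls (7.98% of all genes) and 1 to 4 without 1 library. Between the BAF155 cKO and the Pax6-labelled libraries it was 1 by DESeq2 (8.11%) and 1 with only the 8 libraries compared (6.1%). All genes called numbered 1035 with only the 8 libraries, 4294 with same-sex controls 682 for lane 1 and 2097 for lane 3 in the BAF155 cKO, and 1375 with same-sex controls in the Pax6-labelled libraries. Between both groups these were 1339 by DESeq2, 996 with only the 8 libraries, 470.0 for lane 1 and 209 for lane 3. Without 1 library the ranges were 1001 to 4073 in the BAF155 cKO (fewest without BAF155 cKO replicate 4, most without its replicate 2), 3825 to 6601 in the Pax6-labelled libraries (fewest without control replicate 3) and 307 to 786 between both groups (fewest without Pax6-labelled replicate 4). The cause was not tested.

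Signs changed only for values that were not called. Without 1 library, the log2 fold change in the BAF155 cKO ran from −0.042 to 0.11 for Gap43, −0.27 to 0.057 for Nefl and −0.024 to 0.15 for Stmn2, in the Pax6-labelled libraries from −0.054 to 0.15 for Nefm, and between both groups from −0.069 to 0.11 for Ina. With same-sex controls Nefl was at 0.26 in the BAF155 cKO and Ina at 0.057 in the Pax6-labelled libraries. For lane 1, Stmn2 was at −0.071 and Gap43 at −0.14 in the BAF155 cKO, and for lane 3 Gap43 was at 0.014 between both groups. Ina between both groups was at −0.0067 with no filter and −0.0052 by limma-voom. After the length correction Gap43 was at −0.089 in the BAF155 cKO and −0.027 in the Pax6-labelled libraries, where Map2 was at 0.17.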
